A study of Oryza sativa with 24 samples.

Results

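Roots and shoots of 1 rice variety, PB1, were compared at sufficient phosphate (+Pi). The comparison took the 3 arrays of PB1 root +Pi and the 3 arrays of PB1 shoot +Pi, 6 of the 24 arrays of the series, and every probe set of the rice genome array that is not a control, 57258 of 57381. The study grew Dular and PB1 seedlings for 15 days in Yoshida nutrient solution with 320 µM or 1 µM phosphorus and measured root and shoot separately, with 3 biological replicates in each of 8 groups. No transgene, mutation or further treatment entered any of the groups used here. Each RNA was drawn from pooled tissue of 3 seedlings, so an array averages whole roots or whole shoots of a single genotype at 1 age and says nothing about cell types within them. The tissue of each array was read from its title and description, because the other labels of the arrays speak of whole seedlings. Shoot RNA had been accepted for the arrays at a lower minimum integrity than root RNA, so a tissue difference and a difference in RNA integrity cannot be told apart by the design.

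A rice root takes up water and ions across an exodermis and an endodermis, both sealed by Casparian strips and suberin, so ions pass through pairs of influx and efflux carriers on opposite faces of the cells. Iron is gained both as ferrous ion and, as in other grasses, through secreted phytosiderophores that are built from nicotianamine. The shoot holds the photosynthetic leaves, where light harvesting, carbon fixation, photorespiration and the reassimilation of ammonium take place, and the shoot apex, where KNOX and YABBY factors set meristem and leaf identity. A comparison of the organs asks which of these functions differ in transcript level where Pi is not limiting.

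The deposited values are log2 signals set relative to each probe set's own median over the 24 arrays, so that 0 is that median and no absolute level is known. Differences are given as root minus shoot on the log2 scale with the standard error (SE) of a limma fit to all 24 arrays. Calls required a difference of 2-fold or more and an adjusted p no higher than 0.05, with the Benjamini-Hochberg adjustment made over all 57258 probe sets, and "rose", "higher" and "lower" below stand for such calls. The p-values measure the spread between pools of seedlings. Fewer cells of a type and less RNA per cell cannot be told apart in whole organs.

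In PB1 at +Pi, 4732 probe sets (8.26%) were higher in root and 4476 (7.82%) were higher in shoot. The called differences had a median of 1.76 toward root and 2.19 toward shoot, and 687 and 624 of them reached at least 4 on the log2 scale. The 3 root and the 3 shoot arrays did not overlap for 4673 (98.8%) of the first and 4431 (99.0%) of the second, against 38.1% of all probe sets. Counted with 1 probe set for each of 17905 genes, 2635 genes (14.7%) were higher in root and 2547 (14.2%) in shoot, and the median of all these genes was 0.05. Those shares are the background for the PB1 list counts below. The table pairs 22436 probe sets with 1 gene, 95 with several and 34727 with none, so that of the 50 largest differences toward root only 8 carry a gene name, and of the 50 largest toward shoot 2.

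The spiked and other control probe sets set a limit to what these differences show. Of 123 controls, 39 differed by at least 2-fold between PB1 root and shoot at +Pi, against 9 in Dular at +Pi and 16 in PB1 at −Pi. The bioB probe sets, a bacterial transcript added before hybridization, had medians of -4.78, -4.70 and -5.02 on the root arrays and of 0.35, -0.17 and 0.70 on the shoot arrays. Their root minus shoot difference was -5.11, and that of bioC, bioD and cre, added with it, was -0.72, -0.37 and -0.12. The bioB medians were also low on the PB1 root −Pi arrays, at -4.47, -3.92 and -4.67. On the Dular root arrays of both Pi levels they lay between -0.14 and 0.12. The poly-A controls, added to the RNA before labelling, stood apart on shoot replicate 2 alone. On that array the medians of lys, phe, thr and dap were -5.22, -5.10, -4.12 and -8.79, while the other 2 shoot arrays lay between -0.51 and 0.15. The dap difference of 2.68 became -0.11 without shoot replicate 2. For actin, the 3′ minus 5′ difference of these median-centred values was 0.41 to 0.86 in shoot and -0.15 to -0.02 in root. For the control gene Cyph it was 0.00, 0.10 and 0.12 in shoot and 0.27, 0.09 and 0.11 in root. Centred values give only a shift between arrays, and the absolute ratio of the 2 ends is unknown. The part of labelling, hybridization and RNA integrity in the gene differences was not tested.

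**Figure D1:**
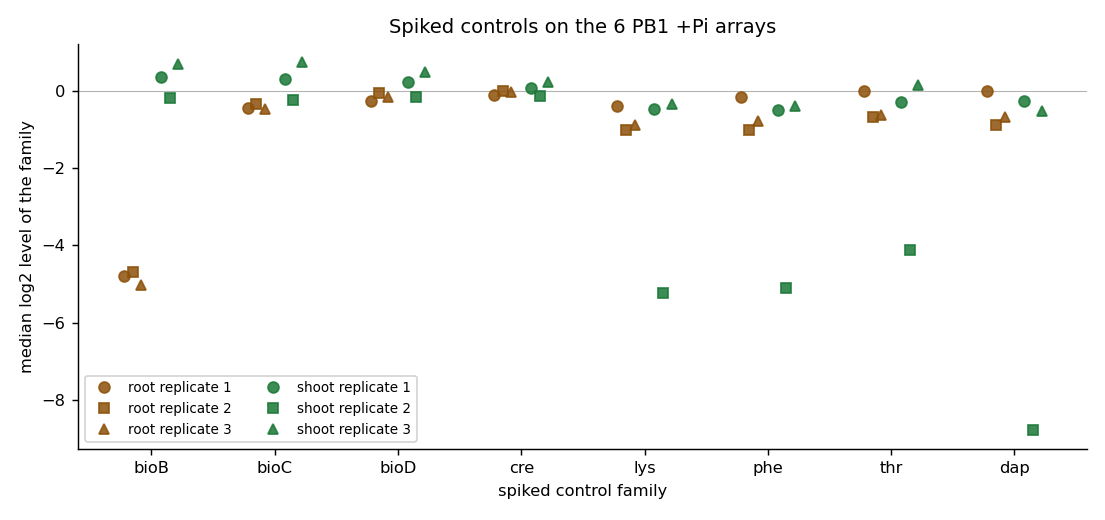
Median log2 level of each spiked control family (relative to its probe sets' medians over 24 arrays) on the 6 PB1 +Pi arrays, with brown symbols for root, green symbols for shoot, and circle, square and triangle for replicates 1, 2 and 3. The 3 root arrays lie near -5 for bioB alone, and shoot replicate 2 lies between -8.79 and -4.12 for lys, phe, thr and dap.

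Within the compared groups, replicate arrays had a Pearson r of 0.886 to 0.907 in root and 0.903 to 0.944 in shoot, across probe sets that are not independent replicates. The 8 measured markers of root tissue, among them Lsi1, NAS1 and IRT1, were all higher in root, with a median of 5.75. Of 9 markers of green shoot tissue, 7 were higher in shoot and the median was -3.0. The remaining 2, RBCS1 at -0.15 and CAB2R at -0.83, did not reach the threshold, though the other probe set of CAB2R gave -1.81. Of 4 markers of seed or pollen, which seedlings should lack, none was called in either direction. A difference between tissues in centred values cannot show that a transcript is absent. One of them, GLUA-3, lay at 2.41, 1.85 and -0.10 in root and at -0.11 to -0.01 in shoot.

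The widest named difference toward root belonged to Lsi2 (gene 4331328, chromosome 3), the efflux carrier that passes silicic acid toward the stele. Its root arrays lay at 6.21, 6.41 and 6.18 and its shoot arrays at -6.30, -5.52 and -6.15. The difference was 12.26 (SE 0.27, adjusted p = 9.93e-16). Lsi1, the silicon influx channel of the same cells, measured 3.15, 3.19 and 3.03 in root against -2.68, -2.92 and -2.68 in shoot, a difference of 5.88 (SE 0.14, adjusted p = 3.19e-15). Both were clear of overlap by a wide gap. Lsi6, the family member that unloads silicon from the xylem of leaves, had a difference of -0.76, under the 2-fold threshold.

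**Figure D2:**
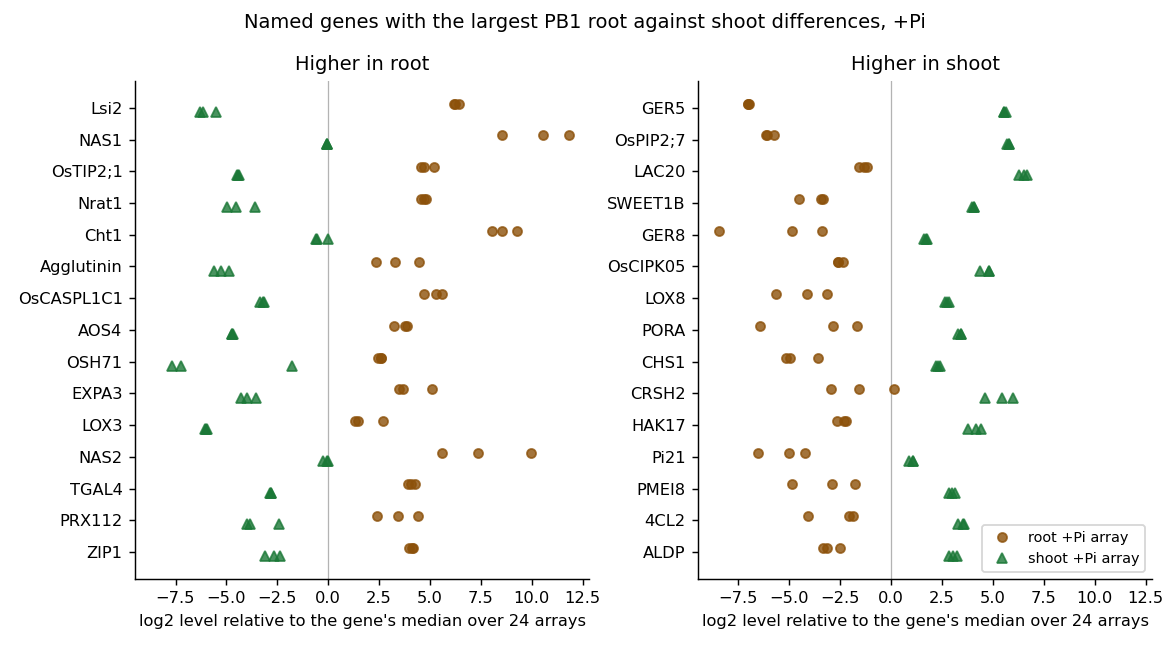
Log2 level relative to the gene's median over 24 arrays (x axis) of the 15 named genes with the widest differences toward root (left) and toward shoot (right), with 1 circle for each root +Pi array and 1 triangle for each shoot +Pi array. Root and shoot symbols do not overlap for any of the 30 genes, while OSH71 has 1 shoot array at -1.77 far from the other 2. PORA, GER8, NAS2, NAS1, PMEI8 and CRSH2 are spread over more than 3 log2 units in root.

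Metal transport and chelation formed the longest list, and 21 of its 54 measured members were higher in root, 5 were higher in shoot, and the median was 0.44 against 0.05 over all genes. The shares over all genes were 14.7% toward root and 14.2% toward shoot. NAS1 (gene 4332608, chromosome 3), which makes nicotianamine from S-adenosylmethionine, measured 11.82, 10.57 and 8.54 in root and -0.05, -0.07 and -0.08 in shoot, a difference of 10.38 (SE 0.62, adjusted p = 2.97e-10). NAS2, its neighbour with 0 genes between them, measured 9.94, 7.35 and 5.59 in root and 0.01, -0.27 and -0.07 in shoot. Signal from these similar copies may be shared, so the values cannot be assigned to either gene with certainty. NAS3, another synthase, differed by 1.43 only (SE 0.26, adjusted p = 0.000224). YSL15, which imports iron bound to phytosiderophore, measured 6.72, 5.22 and 3.36 in root against -1.19, -1.20 and -1.26 in shoot.

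Ferrous iron uptake was split among the arrays. IRT1, the ferrous iron carrier, lay at 2.41, 0.58 and -0.11 in root and at -1.58, -1.58 and -1.66 in shoot, a difference of 2.57 (SE 0.52, adjusted p = 0.000702). Without root replicate 1 it was 1.85, and the call was lost in the fit to the 6 arrays compared. Nramp1 measured 2.98, 1.12 and 0.31 in root and -0.25, -0.51 and -0.28 in shoot. In NAS1, NAS2, YSL15, IRT1 and Nramp1 alike, root replicate 1 was the highest and root replicate 3 the lowest array. Root replicate 1 was the highest root array for 15 of the 21 members called toward root (71.4%), against 55.9% of all probe sets called toward root. The difference of Nramp1 was 1.06 without root replicate 1, and its call was lost there.

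Other metal carriers were even across the root arrays. Nrat1, an aluminium carrier of the plasma membrane, measured 4.57, 4.71 and 4.80 in root and -4.96, -3.58 and -4.55 in shoot, a difference of 9.06 (SE 0.36, adjusted p = 1.31e-12). ZIP1, of the zinc and iron carrier family, differed by 6.78 (SE 0.18), and ZIP5, ZIP4 and ZIP7 by 3.72, 1.69 and 1.04. Copper carriers COPT2 and COPT1 differed by 5.58 and 4.40 and the copper ATPase HMA5 by 4.85. HMA2, which loads zinc toward the shoot, differed by 3.54, and NRAMP5, the manganese and cadmium importer, by 3.03. Those higher in shoot included VIT1, a vacuolar iron and zinc carrier, at -3.60 (SE 0.21), ZIP8 at -2.81, NRAMP4 at -2.57 and MTP5 at -1.55. Of the 54 members, 11 stayed within a 2-fold span on all 24 arrays, among them IRT2, YSL1 and YSL18, and their values do not separate the tissues.

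Water channels divided sharply by member. OsTIP2;1, a channel of the vacuole membrane, measured 5.2, 4.57 and 4.73 in root and -4.39, -4.41 and -4.46 in shoot, a difference of 9.25 (SE 0.15, adjusted p = 3.16e-17), and its other probe set gave 10.57. OsPIP2;7, a plasma membrane channel, ran the other way with -6.11, -5.77 and -6.15 in root and 5.71, 5.78 and 5.77 in shoot, a difference of -11.76 (SE 0.19, adjusted p = 3.01e-17). Neither gene's 3 arrays of a tissue differed by more than 1 log2 unit. The neighbours OsPIP2;5 and OsPIP2;4, with 1 gene between them, were higher in root by 4.07 and 3.66, and OsPIP1;3 and OsTIP1;2 by 2.39 and 2.12. OsNIP1;1 was higher in shoot at -3.72 (SE 0.77), with root arrays at -5.84, -2.24 and -1.04, and the difference was -2.32 without root replicate 1. Of 25 aquaporins, 6 were higher in root and 3 in shoot, where 14.7% and 14.2% of all genes were. The other 16 were not called, and 11 of the 25 spanned less than 2-fold on all 24 arrays.

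Potassium and sodium carriers went both ways, with 7 of 26 higher in root, 7 higher in shoot and a median of -0.01. Over all genes the shares were 14.7% and 14.2%. Toward root were HAK1 at 3.57 (SE 0.32), a high-affinity potassium importer, AKT1, an inward potassium channel, at 2.64, and OsHKT1;5, which withdraws sodium from the xylem, at 3.10. Toward shoot, HAK17 measured 4.40, 4.15 and 3.79 in shoot and -2.64, -2.34 and -2.20 in root, a difference of -6.50 (SE 0.32, adjusted p = 1.97e-11). HAK27 and its neighbour HAK16 were higher in shoot at -5.87 and -3.12. HAK5 differed by -4.41 (SE 0.68) on 1 probe set and by 0.25 on its other, so its direction depends on the probe set.

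Nitrogen genes were called in both directions. OsAMT1;2, an ammonium transporter, measured 3.41, 4.07 and 3.56 in root and -1.94, -1.32 and -2.56 in shoot, a difference of 5.62 (SE 0.29, adjusted p = 5.11e-11). NRT2.2, a high-affinity nitrate transporter, lay at 3.88, 4.88 and 4.06 in root, while its shoot arrays lay at -0.07 to 0.00. OsAMT2;2, OsAMT2;3 and NRT2.3 were higher in root by 4.11, 3.65 and 2.11. Other ammonium transporters were not called, with OsAMT1;1 at 0.27 (-2.14 on its other probe set), OsAMT2;1 at -0.49, OsAMT3;1 at -0.04 and OsAMT3;3 at 0.24. The widest call toward shoot was that of GLT2, a glutamate synthase, which measured 1.42, 0.85 and 1.21 in shoot and -1.59, -2.29 and -1.67 in root. Its difference was -3.01 (SE 0.27) in PB1 and -8.78 in Dular. The cytosolic glutamine synthetase OsGLN1;2 was higher in root by 2.76 (SE 0.14), and the plastid form GLN2 was higher in shoot, at -2.32 (SE 0.10). Fd-GOGAT, the ferredoxin-dependent glutamate synthase of leaves, differed by -1.31, with other probe sets at -1.92 to -0.55. The nitrate reductase NIA1 differed by -1.01 (SE 0.21), a value at the 2-fold threshold that was lost from the calls without some single arrays, and its other probe set gave -0.01. In all, 8 of 19 members were higher in root and 4 in shoot, against 14.7% and 14.2% of all genes.

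Of the 19 members of the phosphate list, 7, among them OsPT3 and OsPT8, had values within a 2-fold span on all 24 arrays. A pair of members on chromosome 3, with 1 gene between them, stood at opposite ends. OsPT2, a low-affinity Pi transporter, measured 3.51, 2.17 and 2.14 in root and -4.01, -3.64 and -3.32 in shoot, a difference of 6.26 (SE 0.34, adjusted p = 9.9e-11). OsPT1 measured -2.32, -3.20 and -3.05 in root and 1.87, 0.96 and 2.31 in shoot, a difference of -4.57 (SE 0.38, adjusted p = 2.51e-08), but its other probe set gave -0.32. SPX5, of the SPX family of Pi sensors, differed by 3.65 (SE 0.30), OsPT4 by 2.64 and PHR3 by 1.12. OsPHO1;3, of the family that exports Pi into the xylem, was higher in shoot at -3.75 (SE 0.42). The list held 4 members higher in root and 2 higher in shoot, against 14.7% and 14.2% of all genes, with a median of -0.01.

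In the photosynthetic lists most calls were toward shoot, where 14.2% of all genes were called. All 16 measured enzymes of chlorophyll synthesis were higher in shoot, from CHLG at -1.05 (SE 0.12) to PORA at -7.05 (SE 0.80), with a median of -2.45. CHLG lay at the 2-fold threshold, with -0.98 without root replicate 1, where its call was lost. The Mg-chelatase subunits CHLH, CHLD and CHLI differed by -3.22, -2.87 and -2.42, chlorophyllide a oxygenase CAO by -3.07 and GSA, an enzyme of the early tetrapyrrole pathway, by -2.49. The other probe sets of CHLH and GSA gave -0.94 and 0.00 and were not called. PORA, the light-requiring protochlorophyllide reductase, lay at 3.44, 3.3 and 3.45 in shoot and at -6.42, -2.88 and -1.66 in root. The shoot arrays were alike and the root arrays were not. Leaving out root replicate 1 gave -5.67, and PORB differed by -2.56 with an SE of 0.15.

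Of the Calvin cycle genes, 5 of 6 were higher in shoot and the median was -3.60. ALDP, the plastid aldolase, measured 2.85, 3.05 and 3.24 in shoot and -3.37, -2.52 and -3.14 in root, a difference of -6.06 (SE 0.20, adjusted p = 1.16e-13), and its other probe sets were also called, with -2.24 and -1.58. Rubisco activase (rca) differed by -3.65, with its other 3 probe sets called at -2.32 to -1.63, a Rubisco small subunit gene (RBCS) by -3.66 and the plastid FBPase by -3.56. Of the other 3 probe sets of RBCS 2 were called toward shoot, and their range was -3.36 to -0.12. Among photosystem and electron transport genes 8 of 10 were higher in shoot, from PETE (plastocyanin) at -1.24 to LFNR1 (leaf ferredoxin-NADP reductase) at -4.22. One reductase gene, FNR on chromosome 3 (gene 4334338), was higher in root with 2.44, 2.49 and 2.37 in root against -0.23, -0.22 and -0.72 in shoot, a difference of 2.83 (SE 0.14, adjusted p = 2e-11). The glycolate oxidases divided too. GLO5 and GLO1 were higher in shoot at -4.83 and -3.78, while GLO4 and GLO3 were higher in root at 2.58 and 1.83. The other probe set of GLO1 gave 1.12, so its direction depends on the probe set.

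**Figure D3:**
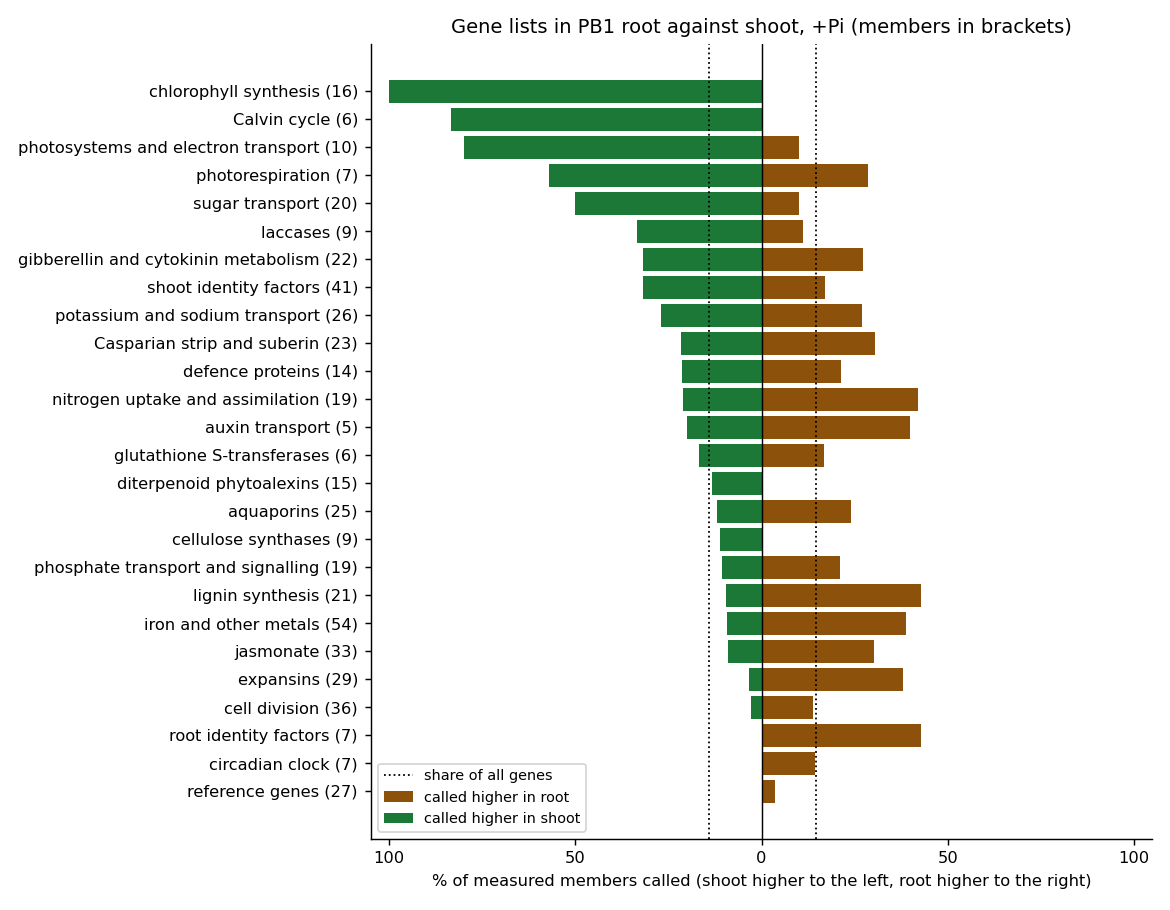
Share of the measured members of each gene list with at least 5 members (number in brackets) that was called higher in root (brown, to the right) or in shoot (green, to the left) in PB1 at +Pi. Dotted lines mark the shares over all genes, 14.7% and 14.2%; chlorophyll synthesis reaches 100% toward shoot with 16 of 16, and the reference genes have 1 call among 27.

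Sugar carriers leaned to the shoot, with 10 of 20 higher there and 2 in root, against 14.2% and 14.7% of all genes. SWEET1B measured 4.07, 3.96 and 4.07 in shoot and -4.52, -3.43 and -3.37 in root, a difference of -7.81 (SE 0.34, adjusted p = 5.88e-12). SWEET2B differed by -3.24, the triose phosphate translocator TPT of the chloroplast envelope by -2.14 (-0.02 on its other probe set) and the sucrose carrier SUT1 by -1.98. SUT4 and MST3 were the members higher in root, at 1.24 and 1.22.

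Expansin calls were mostly toward root. Of 29 expansins, which loosen walls, 11 were higher in root and 1 in shoot (2 without root replicate 3 or shoot replicate 2), led by EXPA3 with 5.08, 3.68 and 3.50 in root against -4.30, -4.01 and -3.55 in shoot, a difference of 8.04 (SE 0.35). EXPB18 and EXPA8 followed at 6.68 and 6.40. The Casparian strip family (CASP and CASP-like membrane proteins) was called in both directions. OsCASP1, which takes part in strip formation in the rice endodermis, measured 4.40, 3.07 and 3.09 in root and -3.12, -3.12 and -3.13 in shoot, a difference of 6.65 (SE 0.28), and its other 2 probe sets gave 2.67 and 2.90. OsCASPL1C1 was higher in root by 8.42 (SE 0.25) and OsCASPL1D1 by 5.62. OsCASPL2A1, OsCASPL2C2 and OsCASPL2C1 were higher in shoot at -3.59, -3.58 and -3.27. On chromosome 11 the adjacent OsCASPL1U3 and OsCASPL1U2 differed by 4.19 and -2.11. Counted over the list, 7 of 23 members were higher in root and 5 in shoot, against 14.7% and 14.2% of all genes.

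Phenylpropanoid enzymes divided by isoform. Of 21 lignin genes, 9 were higher in root and 2 in shoot, against 14.7% and 14.2% of all genes. The 4-coumarate:CoA ligases 4CL1 and 4CL5 were higher in root by 3.95 and 2.41, and 4CL2 was higher in shoot with 3.53, 3.3 and 3.60 against -4.09, -1.88 and -2.06, a difference of -6.15 (SE 0.47). Root replicate 1 was the highest root array in 8 of the 9 genes called toward root, against 55.9% of all probe sets called toward root. LAC20, a laccase, was higher in shoot at -7.85 (SE 0.74). PRX112, a peroxidase gene, differed by 6.82 on 1 probe set and by 0.71 on the other. CHS1, chalcone synthase of the flavonoid branch, differed by -6.87 (SE 0.36), while its other 4 probe sets ranged from -5.58 to -0.06.

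Jasmonate genes had 10 of 33 members higher in root and 3 in shoot, against 14.7% and 14.2% of all genes. AOS4, an allene oxide synthase, measured 3.77, 3.86 and 3.24 in root and -4.71, -4.70 and -4.74 in shoot, a difference of 8.34 (SE 0.21, adjusted p = 3.19e-15). LOX3 was higher in root by 7.81 (SE 0.62), whereas LOX8 and LOX9, lipoxygenases adjacent on chromosome 8, were higher in shoot at -7.08 and -4.56, the latter with other probe sets at -1.14 and -0.02. The oxophytodienoate reductases OPR5 and OPR4 were higher in root by 4.52 and 2.49. Root replicate 3 was the lowest root array in all 10 genes called toward root, against 2406 of all 4732 probe sets called toward root. Of the 10 genes, 6 were called without root replicate 1. OPR1, JAZ8 and AOS (gene 4334233), at 1.24, 1.15 and 1.11, lost their calls in most of the fits without a single array.

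Auxin carriers were called in both directions. PIN2, the auxin efflux carrier of root gravitropism, measured 3.60, 2.90 and 2.72 in root and -2.95, -2.72 and -3.06 in shoot, a difference of 5.99 (SE 0.20), and PIN5 differed by 2.29 (SE 0.37). PIN3A, of the same family, was higher in shoot at -1.66 (SE 0.46), and the call was lost without root replicate 1, at -1.19. Called root identity factors were higher in root. WOX11, a homeobox factor of crown root growth, differed by 4.91 (SE 0.36), RAA1 by 5.04 and SHR1, a factor of endodermis identity, by 1.98. The other 4 of 7 root identity members were not called, with differences of 0.08 to 0.16. Among gibberellin and cytokinin enzymes 6 of 22 were higher in root and 7 in shoot, against 14.7% and 14.2% of all genes. LOGL6, of the cytokinin activating family, led those toward root at 4.80 (SE 0.31).

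The shoot identity list gave calls in both directions: 13 of its 41 members were higher in shoot, 7 were higher in root, and the median was -0.65. Over all genes the shares were 14.2% toward shoot and 14.7% toward root, so the count toward root lay near its share. The 7 toward root became 4 without root replicate 3 and also in the fit to the 6 arrays compared, where those toward shoot became 8. GLK1 and GLK2, activators of chloroplast genes, were higher in shoot at -3.0 (SE 0.13) and -4.92 (SE 0.40). The members toward root were led by 3 class I KNOX genes, which in grasses mark meristems and not leaf blades. OSH71 measured 2.47, 2.59 and 2.58 in root and -7.66, -1.77 and -7.24 in shoot, a difference of 8.10 (SE 1.08, adjusted p = 8.19e-06). OSH6 measured 2.96, 3.41 and 3.10 in root and -2.67, -0.80 and -3.19 in shoot, a difference of 5.37 (SE 0.40). OSH1 lay at 6.47, 7.52 and 8.06 in root and at -0.04, 6.52 and -0.11 in shoot, a difference of 5.23 (SE 1.1, adjusted p = 0.000987).

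In all 3 KNOX genes shoot replicate 2 was the highest shoot array, and for OSH1 it overlapped the root arrays. Without it the differences were 10.00 for OSH71, 6.08 for OSH6 and 7.42 for OSH1. This is the array on which the poly-A controls were low. Shoot replicate 2 was also the highest shoot array for 55.3% of all probe sets called toward root. In Dular at +Pi, OSH1 lay within -0.09 to 0.02 on all 6 arrays of root and shoot, whereas OSH71 and OSH6 were higher in Dular root by 9.19 and 4.11. The OSH1 difference was larger in PB1 than in Dular by 5.14 (SE 1.55, adjusted p = 0.0238). Whether the OSH1 probes match the Dular sequence was not tested.

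**Figure D4:**
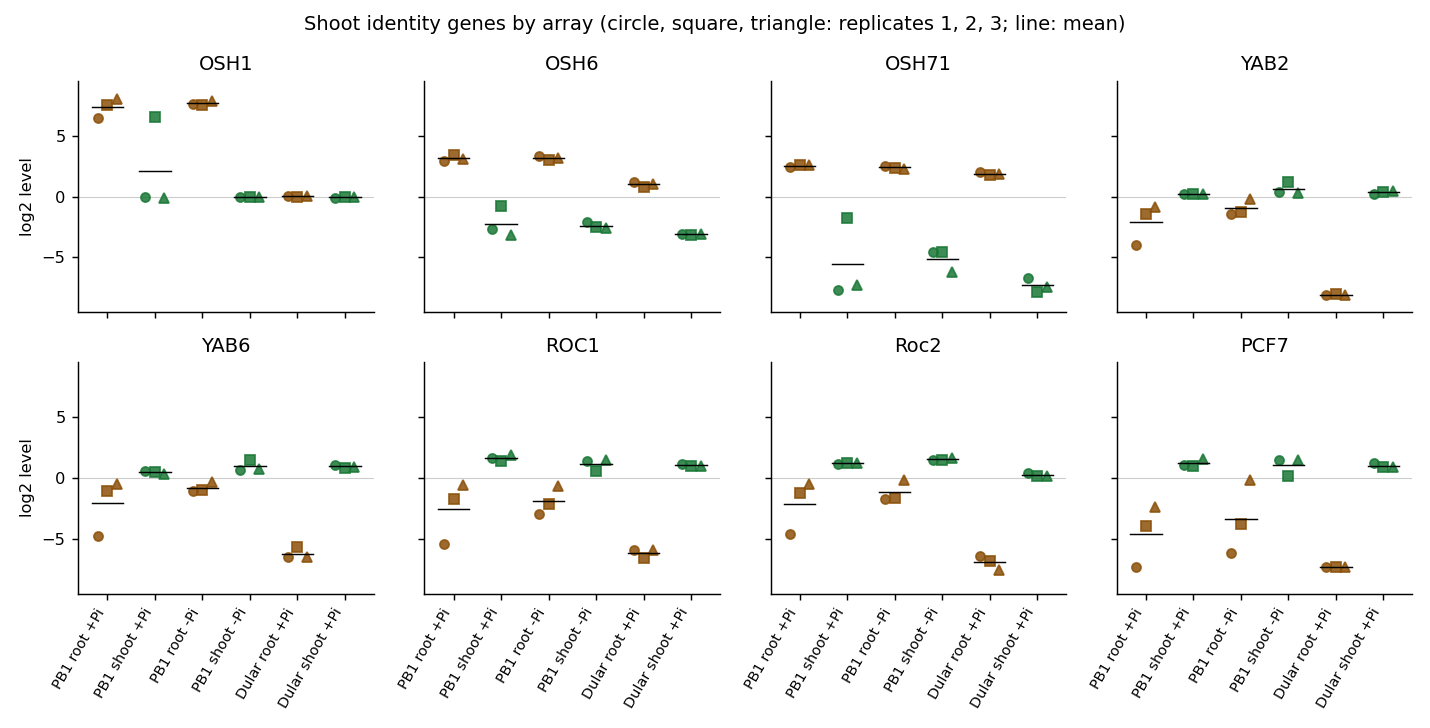
Log2 level relative to the gene's median over 24 arrays of 8 shoot identity genes in 6 of the 8 groups, brown for root and green for shoot, with circle, square and triangle for replicates 1, 2 and 3 and a line at the mean. OSH1 is high in the PB1 roots and on PB1 shoot +Pi replicate 2 alone, and the PB1 roots lie above the Dular roots for YAB2, YAB6, ROC1, Roc2 and, on most arrays, PCF7.

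Factors of leaf and epidermis identity were higher in PB1 shoot with root arrays that spread widely. The YABBY genes YAB2 and YAB6, which act in leaf development, lay at -3.95, -1.44 and -0.87 and at -4.74, -1.05 and -0.49 in root. Their shoot arrays were close together, at 0.23 to 0.25 and 0.33 to 0.59. ROC1, a homeodomain gene of the outer cell layer, measured -5.44, -1.76 and -0.57 in root and 1.66, 1.41 and 1.92 in shoot, and Roc2 -4.62, -1.27 and -0.53 in root and 1.12, 1.2 and 1.27 in shoot. PCF7, a TCP factor, measured -7.34, -3.96 and -2.40 in root and 1.07, 0.97 and 1.53 in shoot. Root replicate 1 was the lowest root array in 10 of the 13 members called toward shoot and root replicate 3 the highest in 10 of them. Over all 4476 probe sets called toward shoot the shares were 47.0% and 37.3%. Without root replicate 1 the difference of ROC1 went from -4.25 to -2.83, of YAB2 from -2.34 to -1.41 and of YAB6 from -2.57 to -1.24.

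YAB2, YAB6, ROC1 and Roc2 were lower on every Dular root +Pi array than on any PB1 root +Pi array. PCF7 was not, since its Dular root arrays lay at -7.29 and PB1 root replicate 1 at -7.34, and its difference between genotypes of 2.52 was not called (SE 1.62, adjusted p = 0.215). YAB2 lay between -8.11 and -8.05 on the Dular root +Pi arrays, and its shoot levels there were 0.23 to 0.44. The YAB2 difference was thus smaller in PB1 than in Dular by 6.11 (SE 0.74, adjusted p = 1.76e-05). In Dular 21 of the 41 members were higher in shoot and 5 in root, where 16.1% and 12.8% of all genes were. The part of shoot base or apex tissue in the PB1 root samples was not tested, and where root and shoot were parted is not given in the sources used here. Of 36 genes of cell division, 5 were higher in PB1 root and 1 in PB1 shoot, where 14.7% and 14.2% of all genes were. CYCD5-3 was higher in root by 1.79. KRP6, of the cyclin-dependent kinase inhibitors, was higher in shoot at -2.38 (SE 0.15) on 1 probe set. Its other probe set gave -0.01 and was not called.

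Single genes of other families stood beside these lists at the ends of the ranking. GER5 (gene 4345763, chromosome 8), a germin-like protein of the cell wall, had the widest named difference toward shoot, with 5.55, 5.56 and 5.64 in shoot and -6.98, -7.03 and -7.01 in root. That is -12.59 (SE 0.45, adjusted p = 3.77e-13). GER8 of the same family differed by -7.27 (SE 1.24), with root arrays at -8.46, -4.88 and -3.41. OsCIPK05, a kinase of the calcium sensor network, differed by -7.19, CRSH2, a plastid enzyme for guanosine tetraphosphate, by -6.82, and PMEI8, an inhibitor of pectin methylesterase, by -6.17. Pi21, a proline-rich protein known from blast resistance, differed by -6.27 and by -6.41 on its other probe set. Toward root, the lectin gene Agglutinin differed by 8.64 (SE 1.19) and TGAL4, a bZIP factor of the TGA-like group, by 6.89. Of 27 reference genes 1 was called (2 without shoot replicate 2), GAPC3 at 1.84 (SE 0.23) with other probe sets at 0.20 to 2.27, and their median was 0.23.

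Compared with Dular at +Pi, where 4206 probe sets (7.35%) were higher in root and 5060 (8.84%) in shoot, the PB1 pattern was shared in large part. Of the PB1 calls toward root 2736 were also called toward root in Dular, which is 57.8% of the PB1 list and 65.0% of the Dular list. Toward shoot 3375 were shared, 75.4% and 66.7% of the lists. The opposite call was made in Dular for 68 of the first and 28 of the second. The difference between the genotypes was called for 5102 probe sets (8.91%), 2925 (5.11%) with a more positive and 2177 (3.80%) with a more negative value in PB1.

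**Figure D5:**
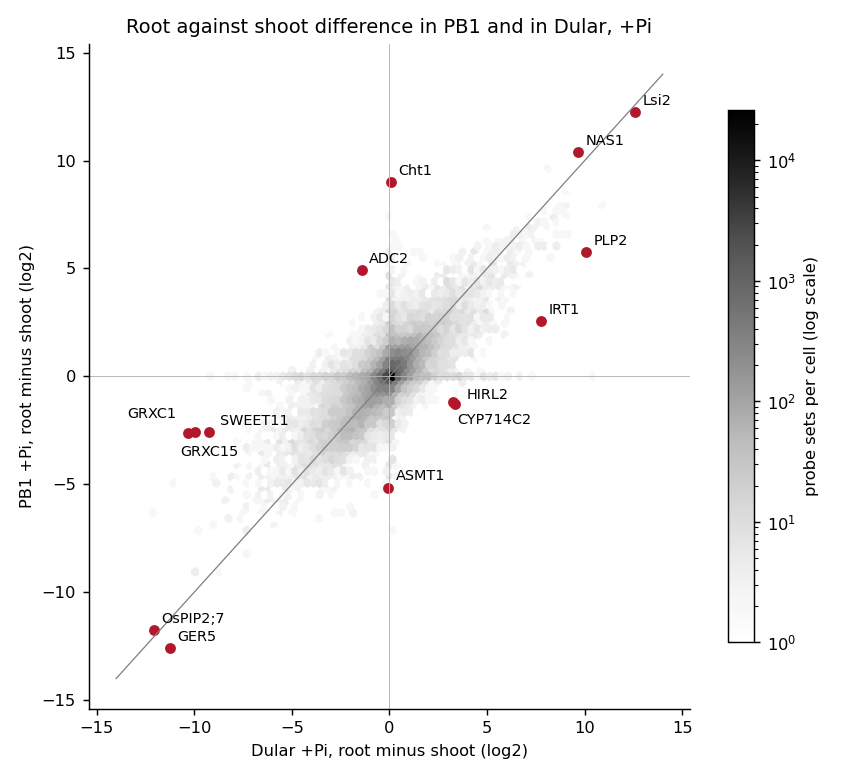
Root minus shoot difference at +Pi of each of the 57258 probe sets in Dular (x axis) and in PB1 (y axis), both on the log2 scale, as cells shaded by the number of probe sets on a log scale, with 14 named genes in red and the line of equal differences. Lsi2, NAS1, GER5 and OsPIP2;7 lie near the line, and at +Pi Cht1 and ASMT1 differ between root and shoot in PB1 and not in Dular.

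Cht1, a chitinase gene, was the widest named departure from Dular. It measured 8.52, 8.04 and 9.28 in PB1 root and -0.55, 0.00 and -0.59 in PB1 shoot, a difference of 8.99 (SE 0.33), while all Dular +Pi arrays lay between -0.10 and 0.05. The difference between genotypes was 8.93 (SE 0.47, adjusted p = 6.15e-10). ASMT1, an acetylserotonin methyltransferase, measured 4.51, 6.28 and 4.59 in PB1 shoot and -0.04 to -0.01 in PB1 root, and lay at -0.02 to 0.25 in Dular, a difference between genotypes of -5.09 (SE 0.41). Neither gene separated Dular root from Dular shoot. In PB1 at −Pi, Cht1 was again higher in root, by 10.79, whereas ASMT1 differed by -0.11 and was not called. The ASMT1 shoot arrays there lay at -0.01 to 0.29, so its difference was not shared by PB1 at both Pi levels.

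Some genes were called in both genotypes with unlike sizes. The glutaredoxin genes GRXC1 and GRXC15 differed by -2.62 and -2.59 in PB1 and by -10.30 and -9.97 in Dular, and SWEET11, a sucrose exporter, by -2.57 and -9.24. Their Dular root arrays lay at -5.96 to -5.13, -7.98 to -7.37 and -6.55 to -6.54, under all PB1 root +Pi arrays. The PB1 root arrays of SWEET11 spread widely, at -3.87, -2.29 and -0.32. Its PB1 difference ranged from -3.49 to -1.72 when single arrays were left out. IRT1 went the other way, with 2.57 in PB1 and 7.76 in Dular, where its roots lay at 7.17 to 7.28 (difference between genotypes -5.19, SE 0.74, adjusted p = 9.65e-05). PLP2, a patatin-like lipid hydrolase, differed by 5.74 and 10.08. CYP714C2, a P450 of the gibberellin-modifying family, and HIRL2 changed direction, from -1.18 and -1.30 in PB1 to 3.28 and 3.38 in Dular. ADC2, arginine decarboxylase of polyamine synthesis, was higher in PB1 root by 4.91 (SE 1.08), and the genotype difference of 6.30 (SE 1.52, adjusted p = 0.00796) includes Dular shoot arrays that spread from -0.77 to 4.84.

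Low Pi left most of the PB1 tissue pattern in place. At −Pi, 5222 probe sets (9.12%) were higher in PB1 root and 4694 (8.20%) in PB1 shoot. Of the +Pi calls toward root 3614 were also called at −Pi (76.4% of the +Pi list and 69.2% of the −Pi list), and of those toward shoot 3722 (83.2% and 79.3%), with 5 and 13 called the opposite way. The tissue difference itself differed between Pi levels for 1388 probe sets (2.42%), or 796 where the fit was limited to the 12 PB1 arrays. PB1 shoot −Pi replicate 2 stands apart from its group, with r of 0.577 to 0.597 to the other 2 arrays.

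The widest change in that test among the genes named here was that of OsPT6, a Pi transporter. It did not separate the tissues at +Pi, with -0.01 and all 6 arrays between -0.14 and -0.09, and it was higher in root by 7.21 at −Pi, where its root arrays lay between 8.26 and 8.82. The change was -7.22 (SE 0.54, adjusted p = 3.37e-07). Toward higher values at +Pi, a nitrate and a copper carrier led. NRT2.2 was higher in PB1 root by 4.31 (SE 0.17) at +Pi and by 0.13 at −Pi, a difference of 4.18 (SE 0.24, adjusted p = 1.03e-08). COPT2 differed by 5.58 at +Pi and 1.38 at −Pi, and CSLF7, of the family that makes mixed-linkage glucan, by 3.33 and 0.28. CPS1, the first enzyme of gibberellin synthesis, turned from -2.94 at +Pi to 2.89 at −Pi. Its PB1 roots lay at -4.89, -2.50 and -1.40 at +Pi and at 1.81 to 2.43 at −Pi. SPX3 and OsPHO1;3 differed by -0.50 and -3.75 at +Pi and by 2.53 and -0.94 at −Pi. SPX3 root arrays lay between -3.56 and -2.60 at +Pi and between 4.64 and 5.15 at −Pi. The change of SPX3 was -3.03 (SE 0.61, adjusted p = 0.00664), and it lost its call after quantile normalization.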

How the data were processed

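Arrays were Affymetrix rice genome arrays hybridized with biotin-labelled RNA. The authors normalized and summarized the scanned signals with GC-RMA in GeneSpring, and the deposited log2 values are in addition centred on each probe set's median over 24 arrays, as the values show. No filter on signal over background could therefore be applied, and precision is limited by the number of arrays, 3 per group. Groups were taken from titles and descriptions.

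A mean for each of the 8 groups was fitted to the 24 arrays (limma 3.58.1 under R 4.3.3, functions lmFit and eBayes), with 16 residual and 0.789 prior degrees of freedom. Contrasts were PB1 root minus shoot at +Pi, the same in Dular at +Pi and in PB1 at −Pi, and the differences between these. Genes came from the platform annotation and the RefSeq gene table. Where a gene had several probe sets, the first by suffix and identifier stood for it. Members and lists were chosen with earlier results of these data known, and names in them can be incomplete. Named genes are the 15 widest called differences each way without overlap, the 5 widest each way in both tests of a difference (also without overlap of PB1 root and shoot at +Pi), and examples from 29 lists. Genes outside this rule (the KNOX, YABBY and other list members described one by one) were chosen after their values were seen. Probe sets of similar genes can share signal.

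Root and shoot arrays of the same number were checked for pairing. The Pearson correlations of their deviations from the group means over probe sets were -0.00307, 0.182 and -0.0203 for the PB1 +Pi pairs, so not all exceeded 0.1 and the arrays were taken as unpaired. Alternatives were other normalizations, a trend in the prior variance, fits to fewer arrays, replicate blocks, unmoderated tests, other thresholds, a filter on spread, other probe sets of a gene and leaving out single arrays. After the data had been seen, a fit without the PB1 shoot −Pi arrays was added. Scripts were tested on simulated data.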

Additional observations from a re-analysis of the deposited data

Results flagged for a closer look

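Genes named by the rule whose root minus shoot difference in PB1 at +Pi differed, by the test of the difference itself, from that in Dular or from that in PB1 at −Pi are given here with that difference of differences, PB1 minus Dular or +Pi minus −Pi, on the log2 scale.

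Against Dular, PB1 was more positive for Cht1 (8.93), GRXC1 (7.69), GRXC15 (7.38), SWEET11 (6.67), ADC2 (6.30), YAB2 (6.11), GLT2 (5.77), NRT2.2 (4.19) and LOGL6 (4.06). Values from 2 to 4 belonged to OsCASPL2A1 (3.54), HAK17 (3.51), CPS1 (3.29), GLO4 (3.26), LAC10 (3.06), COPT2 (3.06), EXPA2 (2.75), chia4a (2.57), GSTU1 (2.21), the gene listed as peroxidase (2.13) and FNR (gene 4334338, 2.09). Smaller positive values belonged to PRR37 (1.85), PIN3A (1.83), NAS3 (1.68), CHS1 (1.67), PIN5A (1.67), OsAMT2;1 (1.55), PRR1 (1.55), PRR73 (1.49), OsAMT1;2 (1.46), rca (1.44), OsPT4 (1.28), SUT4 (1.24), GSTZ5 (1.21), SUT1 (1.15) and ALDP (1.12).

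PB1 was more negative than Dular for IRT1 (-5.19), ASMT1 (-5.09), HIRL2 (-4.69), CYP714C2 (-4.46), PLP2 (-4.34) and Pi21 (-4.28). Values from -4 to -2 belonged to OsPT1 (-3.58), CRSH2 (-2.90), EXPA3 (-2.82), OsPT2 (-2.63), OsPHO1;3 (-2.57), PRX74 (-2.49), BURP16 (-2.45), Lsi1 (-2.43), GER3 (-2.05) and KRP6 (-2.03). Smaller negative values belonged to SHR1 (-1.96), OsCASP1 (-1.95), LAC7 (-1.89), CHLH (-1.84), PORB (-1.63), PRX112 (-1.60), CESA9 (-1.59), the glutelin gene GLUA-1 (-1.59), RCABP69 (-1.51), AOS4 (-1.41), SAUR39 (-1.41), GLO5 (-1.36), 4CL1 (-1.33), VIT1 (-1.31), PSB28 (-1.29), PSAH (-1.15), EXLA1 (-1.13) and OsCASPL1C1 (-1.09).

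Against −Pi, the PB1 difference at +Pi was more positive for COPT2 (4.20), NRT2.2 (4.18), SAUR39 (3.71), BURP16 (3.37), CSLF7 (3.05) and OsAMT1;2 (2.01), and by less for PLP2 (1.90), ZIP1 (1.47), OsAMT1;1 (1.38), OsCASPL1C1 (1.31), GLK1 (1.31), LAC7 (1.24) and GAPC3 (1.22). It was more negative for OsPT6 (-7.22), CPS1 (-5.83), ASMT1 (-5.04), GER3 (-3.19), SPX3 (-3.03), OsPHO1;3 (-2.81), CHS1 (-2.65), PIN5 (-2.51) and PRX112 (-2.05), and by less for CESA1 (-2.02), OsPT2 (-1.89), GLO5 (-1.84) and Cht1 (-1.80).

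Outside the genes, the bioB control probe sets had a median PB1 root minus shoot difference of -5.11 and the dap control probe sets one of 2.68, which rests on shoot replicate 2.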

How the results depend on the processing

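The counts of probe sets depended on the threshold. With limma's treat against a 2-fold difference, 2417 probe sets were higher in PB1 root, 2914 were higher in shoot, 1158 differed between PB1 and Dular and 130 between the Pi levels. With the adjusted p alone the counts were 9873, 7111, 20218 and 2994, and with at least 4-fold 2029, 2508, 2052 and 419. Counted over genes with any called probe set there were 2856 genes toward root and 2725 toward shoot, and 21 with calls both ways. The difference between Pi levels fell from 1388 to 796 probe sets in the fit to the PB1 arrays.

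Leaving out 1 array at a time gave 4414 to 4851 toward root, 4302 to 4474 toward shoot, 4273 to 5069 for the genotype difference and 1185 to 1512 for the Pi difference. A block for the replicate number gave 4721, 4472, 5030 and 1409, and a block within genotype and Pi level 4605, 4408, 4605 and 1034, which did not move any of these counts by over 1.5 times. The numbers mark no shared seedlings in the labels, and the blocks are given for completeness.

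The alternatives gave 1271 values for 73 single-gene results. Of these values, 1256 kept direction and call, 13 kept the direction and lost the call, 2 gained a call and 0 reversed. Some list members described above were not among the 73 results. On their other probe set, GLO1 reversed to 1.12, and OsPT1, KRP6 and CHLH were not called, at -0.32, -0.01 and -0.94. Among the 73 results, the last probe set of the gene lost the call of PRX112 and of RBCS. The fit to the 6 arrays compared lost that of IRT1. Limma's treat lost SHR1 and CYCB2 (gene 4336670), the genotype difference of ADC2, and the Pi level differences of BURP16, GER3, SPX3 and OsPHO1;3. CYCB2 was also lost without PB1 root replicate 3, BURP16 in the fit to the PB1 arrays, and SPX3 with quantile normalization. The jasmonate genes toward root fell from 10 to 6 both without PB1 root replicate 1 and with the block within genotype and Pi level. The shoot identity members toward root fell from 7 to 4 both without root replicate 3 and in the fit to the 6 arrays compared. Signal over background and absolute level are unknown, so a difference near the detection floor cannot be told apart from one between 2 expressed levels.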
